A study of Mus musculus with 22 samples.

Results

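JARID2 and MTF2 were compared in mouse neural progenitor cells (NPC) with CUT&RUN, an assay in which an antibody held on chromatin directs a nuclease to cut out and release the DNA beside its target. Of the 22 libraries of the series, 4 are compared here, chosen by antibody and cell type: 2 of JARID2 in NPC and 2 of MTF2 in NPC, with the 1 library of non-specific IgG in NPC as background. The NPC were made from C57BL/6 embryonic stem cells (ESC) labelled untagged, Tir1, a line that carries the auxin-degron receptor Tir1 and no tagged protein. Differentiation took 72 h in 10 ng/mL bFGF, followed by 48 h in 500 nM SAG, which activates Smoothened and so the Hedgehog pathway. The treatment label of all of them reads untreated. All 5 libraries share this genotype and protocol and differ by antibody. The question is at which transcription start sites (TSSs) of progenitors JARID2 or MTF2 is the stronger, and reads were counted in 24467 windows of 5000 bases around RefSeq TSSs (mouse build mm10). In H3K4me3, the mark of active promoters, 7 of 7 neural progenitor genes (Sox1, Pax6, Nes, Sox3, Hes5, Fabp7 and Meis1) were higher in both NPC libraries than in both ESC libraries, and 6 of 6 genes of naive ESC were lower. Neuronal genes moved with the progenitor genes in 4 of 4 cases, with summed H3K4me3 levels of 110.3 and 110.1 CPM (counts divided by the library total and multiplied by 1000000) in NPC and 65.5 and 62.4 CPM in ESC, and their part in the results below was not tested. Of 3 mesoderm genes 1 was higher in NPC (Tbx6) and 2 were lower, and of 3 endoderm genes 1 was higher (Foxa2) and 1 lower (Sox17). Summed endoderm H3K4me3 was 165 and 175 CPM in NPC and 106 and 84.8 CPM in ESC. Summed mesoderm H3K4me3 was 72.6 and 59.1 CPM in NPC and 85.1 and 82.6 CPM in ESC.

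Polycomb repressive complex 2 (PRC2) methylates histone H3 at lysine 27, a mark of silent developmental genes, through a core that includes SUZ12. It exists in alternative forms: PRC2.2 carries JARID2 and AEBP2, and PRC2.1 carries a Polycomb-like protein, of which MTF2 is one. JARID2 binds the ubiquitin that PRC1 puts on histone H2A, whereas Polycomb-like proteins bind unmethylated CpG-rich DNA and anchor the complex at CpG islands.

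Because MTF2 belongs to the proteins that read CpG dinucleotides, promoters of 4 TSSs described below are shown, 2 where JARID2 stood relatively high and 2 where it stood relatively low among PRC2-bound TSSs. Each run is 300 bases of RefSeq sequence (GRCm38.p6), 250 before and 50 from the start of transcription, 5′ to 3′ on the strand of the gene, with each CpG in capitals. Lfng lies at chr5:140607091-140607390 on the plus strand, and its promoter holds 22 CpGs at 66.7% G and C. Nkx2-9 lies at chr12:56613235-56613534 on the minus strand, with 15 CpGs at 59.3%. Both are the relatively JARID2-high examples. The relatively JARID2-low examples are Sp5 at chr2:70474673-70474972 on the plus strand, with 6 CpGs at 45%, and Nkx2-4 at chr2:147085296-147085595 on the minus strand, with 38 CpGs at 68.3%.
Lfng: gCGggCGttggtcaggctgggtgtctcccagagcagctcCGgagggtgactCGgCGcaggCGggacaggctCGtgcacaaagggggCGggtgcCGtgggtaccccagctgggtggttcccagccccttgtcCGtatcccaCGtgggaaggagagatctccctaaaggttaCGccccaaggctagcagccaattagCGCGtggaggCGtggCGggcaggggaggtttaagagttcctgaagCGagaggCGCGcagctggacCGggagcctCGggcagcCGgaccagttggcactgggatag
Nkx2-9: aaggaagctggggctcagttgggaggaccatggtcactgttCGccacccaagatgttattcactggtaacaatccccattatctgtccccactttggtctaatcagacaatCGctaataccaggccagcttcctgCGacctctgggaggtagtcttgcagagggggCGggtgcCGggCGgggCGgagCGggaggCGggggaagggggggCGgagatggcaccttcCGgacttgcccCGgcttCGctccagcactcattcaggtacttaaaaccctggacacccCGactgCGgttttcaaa
Sp5: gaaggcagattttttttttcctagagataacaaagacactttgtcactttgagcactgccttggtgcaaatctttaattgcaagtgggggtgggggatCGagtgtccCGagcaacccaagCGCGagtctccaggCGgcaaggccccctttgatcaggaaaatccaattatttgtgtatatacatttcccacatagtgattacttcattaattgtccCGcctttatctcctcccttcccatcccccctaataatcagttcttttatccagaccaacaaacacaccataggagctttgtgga
Nkx2-4: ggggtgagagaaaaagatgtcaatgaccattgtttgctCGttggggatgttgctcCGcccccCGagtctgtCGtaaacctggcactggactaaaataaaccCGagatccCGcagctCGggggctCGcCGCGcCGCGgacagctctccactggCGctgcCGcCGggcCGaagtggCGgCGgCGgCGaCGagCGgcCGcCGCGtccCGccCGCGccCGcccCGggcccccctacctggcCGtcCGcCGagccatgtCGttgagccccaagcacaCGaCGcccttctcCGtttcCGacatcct
The lowest and the highest CpG count of the 4 both belong to JARID2-low promoters, and 4 examples cannot stand for their groups. A comparison over all such promoters was void, because only 7 of 18 JARID2-high and 11 of 14 JARID2-low TSSs matched a start in the sequence table within 10 bases. Over the matched promoters alone the median was 15 CpGs (quartiles 10.5 and 18.5) for JARID2-high and 25 (17.5 and 32) for JARID2-low. It was 20 over the 256 matched promoters of all 452 PRC2-bound TSSs. These medians were not tested.

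The JARID2 libraries held 492529 and 339591 counted reads, the MTF2 libraries 439379 and 517104, and the IgG library 667898. At these depths 3 reads, the upper limit that a count of 0 allows, are worth 6.09 and 8.83 CPM in JARID2, 6.83 and 5.80 CPM in MTF2 and 4.49 CPM in IgG, and such limits cover counting error only. Over all windows the spread between the 2 JARID2 libraries was within the error of counting (a chi-square of 0.998 for each degree of freedom), and over PRC2-bound windows it was somewhat larger (1.3), so they were kept as 2 samples. The 2 MTF2 libraries differed by 1.69 over all windows and by 22.2 over PRC2-bound windows. This spread does not say which of the 2 is the unusual one. The main counts and group medians are therefore also given without each of them. Nothing in the labels says that replicates came from separate cultures, so p-values measure the spread between these libraries, which may be technical. All 22 libraries carry the name of 1 sequencing run.

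At the TSSs that PRC2 occupies in NPC, JARID2 levels lay above IgG and below MTF2. These TSSs were taken from the 2 SUZ12 libraries against IgG alone, without JARID2 or MTF2: 452 of 22637 tested windows (2.00%) had SUZ12 at least 2-fold above IgG with an adjusted p below 0.05, which is a log2 ratio of at least 1. They took 3.29% and 2.90% of the reads of the JARID2 libraries, 4.18% and 9.42% of the MTF2 libraries and 1.93% of IgG. The SUZ12 libraries, which chose the windows, had 6.81% and 6.83%. Both JARID2 libraries were below both MTF2 libraries, and MTF2 replicate 1 lay nearer to JARID2 than to MTF2 replicate 2. The mean share was 3.10% ± 0.278 for JARID2 and 6.80% ± 3.71 for MTF2 (SD, n = 2 each), and the two-sided exact permutation p of 0.333 is the smallest that 2 against 2 libraries can give.

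**Figure D1:**
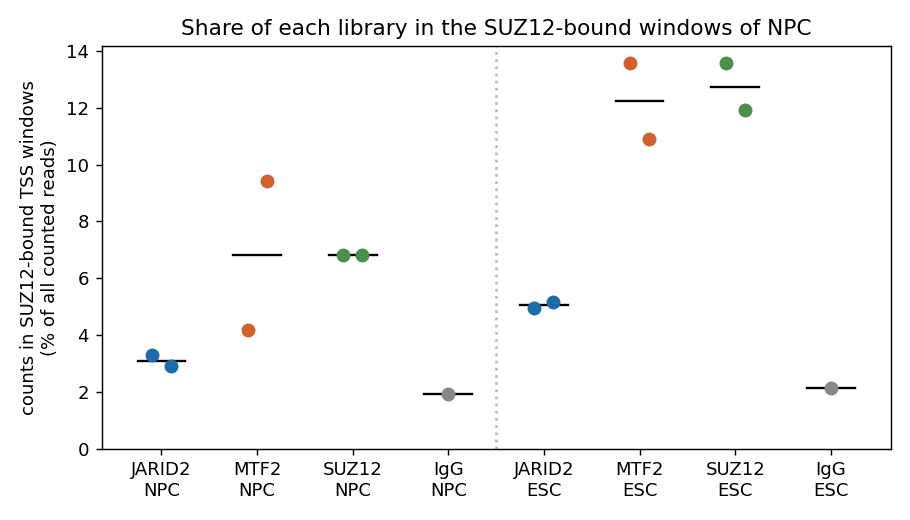
Percent of counted reads (y axis) that fell in the 452 SUZ12-bound TSS windows of NPC, by antibody and cell type (x axis); each point is 1 library and each bar the mean of its group. The NPC JARID2 libraries lie at 3.29% and 2.90%, below the NPC MTF2 libraries at 4.18% and 9.42% and above IgG at 1.93%.

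Window by window, the median SUZ12-bound TSS held 65.0 and 58.9 CPM in the JARID2 libraries, 86.5 and 178 CPM in the MTF2 libraries and 41.9 CPM in IgG. JARID2 was therefore above the background and below MTF2 at the middle of the set in each library. Both JARID2 libraries exceeded IgG at 379 of 452 bound TSSs and both MTF2 libraries at 446, against 29.6% and 25% of all windows tested. These counts are a description, since the same IgG library helped to choose the windows. The fitted log2 ratio of JARID2 over MTF2 had a median of -1.18 and was negative at 441 of 452 TSSs (97.6%), beside a median of -0.01 and 51.1% over all 23325 windows tested. Both JARID2 libraries lay below both MTF2 libraries at 321 bound TSSs and above both at 5, where 14.7% and 21.8% of all windows did so. Without MTF2 replicate 2 the median was -0.42 and 80.5% of the ratios were negative, and without MTF2 replicate 1 the median was -1.64. JARID2 replicate 1 was below MTF2 replicate 1 at 342 TSSs and JARID2 replicate 2 below it at 382, while they were below MTF2 replicate 2 at 439 and 446. Each protein was read with its own antibody, so a ratio of levels is not a ratio of molecules.

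**Figure D2:**
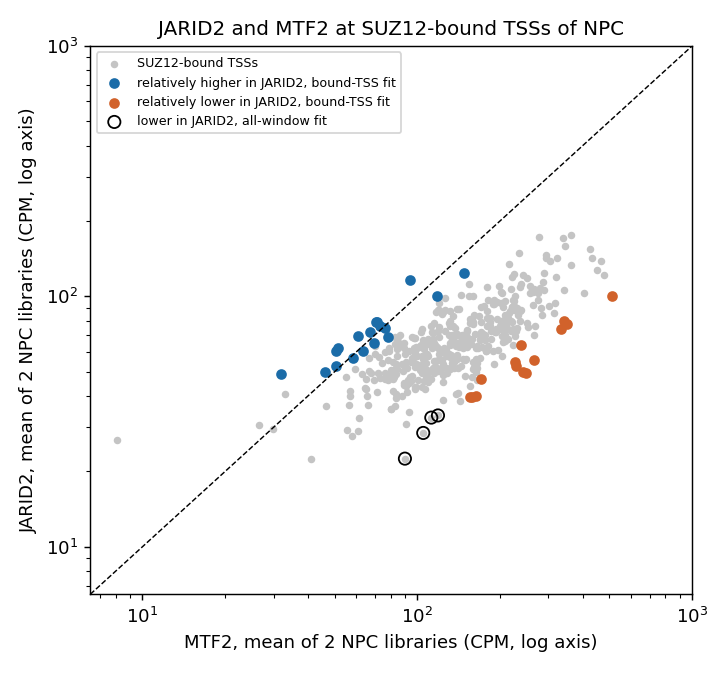
Mean CPM of the 2 JARID2 libraries (y axis) against that of the 2 MTF2 libraries (x axis) at the 452 SUZ12-bound TSSs of NPC, both on log axes with a dashed line of equality; coloured points are the 18 and 14 TSSs called relatively higher and lower in JARID2 among the bound TSSs, and rings the bound TSSs called lower in JARID2 over all windows. Most points lie below the line.

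Few single TSSs differed between JARID2 and MTF2 by more than the spread of the libraries. In edgeR's quasi-likelihood test of the 5 libraries with Benjamini-Hochberg adjustment, JARID2 was higher than MTF2 at 0 windows (0% of 23325) and lower at 8 (0.0343%). At an unadjusted p under 0.05 there were 611 higher and 1167 lower, and DESeq2 called 0 in either direction. The smallest adjusted p of a window with more JARID2 was 0.177. The count of lower TSSs was 3 without MTF2 replicate 2, of which 0 were among the 8, 760 without MTF2 replicate 1, 1 without JARID2 replicate 1 and 0 without JARID2 replicate 2. The count of higher TSSs was 45 without MTF2 replicate 1 and 1 without MTF2 replicate 2.

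At the 8 TSSs both JARID2 libraries were below both MTF2 libraries, as at 14.7% of all windows. The same libraries called the 8, so this is a description. Tcf24, of the basic helix-loop-helix family (chr1:9964985-9969985), had 34.5 and 32.4 CPM in JARID2, 77.4 and 161 CPM in MTF2 and 21.0 CPM in IgG. JARID2 was above IgG and well below MTF2 there, and the log2 ratio of JARID2 over MTF2 was -1.94 ± 0.39 (SE, adjusted p = 0.0380). Nfib, a nuclear factor I protein needed for glial differentiation (chr4:82503279-82508279), had 30.5 and 26.5 CPM in JARID2, 47.8 and 162 CPM in MTF2 and 38.9 CPM in IgG. JARID2 was below IgG at Nfib, and the ratio was -2.0 ± 0.42 (adjusted p = 0.0435). The desmosome protein gene Dsp had 24.4 and 41.2 CPM in JARID2, 68.3 and 157 CPM in MTF2 and 34.4 CPM in IgG. Of the 8 TSSs, 4 were SUZ12-bound, Tcf24, Nfib and Dsp among them. Those that were not are Trank1, the zinc-finger gene Zfp804a, the testis RNA-binding gene Rbmxl2 and the cornified-envelope gene Lor, with log2 ratios between -1.89 and -1.71. Zfp804a had 22.3 and 17.7 CPM in JARID2, 66.0 and 69.6 CPM in MTF2 and 29.9 CPM in IgG, and its MTF2 libraries were close to each other.

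**Figure D3:**
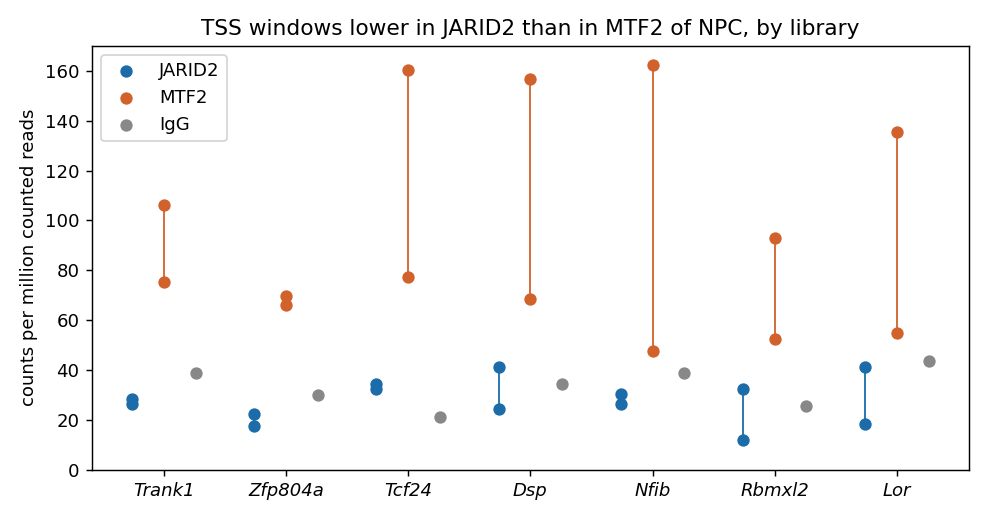
CPM (y axis) of each NPC library at 7 of the 8 TSSs called lower in JARID2 than in MTF2 (x axis, by adjusted p); points are libraries, and lines join the 2 libraries of an antibody. At every TSS shown both JARID2 points lie below both MTF2 points, and the same libraries called these TSSs.

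A TSS was read as favouring JARID2 or MTF2 only where the higher of them was also called above IgG, at an adjusted p below 0.05 and a log2 ratio of at least 1. JARID2 was called above IgG at 0 of 23325 windows (0%) in the edgeR test, with 139 at an unadjusted p under 0.05 and 0 in DESeq2. MTF2 was called at 5 (0.0214%), with 150 in DESeq2. All 5 were SUZ12-bound, Tcf24, Sim1, Irs4 and Irx1 among them. Sim1, a factor of hypothalamic and interneuron development, had 44.7 and 44.2 CPM in JARID2, 56.9 and 122 CPM in MTF2 and 18 CPM in IgG. Irx1, an Iroquois homeobox gene, had 62.9 and 44.2 CPM in JARID2, 66.0 and 132 CPM in MTF2 and 19.5 CPM in IgG. At both, JARID2 exceeded IgG in each library. The TSSs favouring JARID2 numbered 0 (0%), and those favouring MTF2 numbered 2 (0.00857%), Tcf24 among them. The comparisons of JARID2 and of MTF2 with IgG share the 1 IgG library, whose spread was taken from the other antibodies. The SUZ12-bound TSSs were chosen against the same library. It held 7 to 14 reads at the 5 TSSs called for MTF2, beside a median of 28, so their overlap with the bound set is partly built in. Leaving out 1 library at a time gave 0 to 30 calls of JARID2 above IgG, with 30 without MTF2 replicate 2 and 12 without MTF2 replicate 1. It gave 4 to 864 calls of MTF2, with 864 without MTF2 replicate 1 and 123 without MTF2 replicate 2. The TSSs favouring MTF2 were 671 without MTF2 replicate 1 and 0 without either JARID2 library.

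The windows with more JARID2 that came nearest to a call carried little PRC2. Krt81, a hair keratin gene, had 71.1 and 76.6 CPM in JARID2, 34.1 and 23.2 CPM in MTF2 and 53.9 CPM in IgG. Its log2 ratio was 1.29 ± 0.33 (adjusted p = 0.177). Vwa7, the pseudogene Nlrp1c-ps, the cytochrome P450 gene Cyp2e1 and Pik3cg, which encodes a phosphoinositide 3-kinase subunit, followed with ratios of 1.22 to 1.34 and adjusted p between 0.190 and 0.220. At Cyp2e1 the levels were 58.9 and 58.9 CPM in JARID2, 22.8 and 21.3 CPM in MTF2 and 34.4 CPM in IgG. At Krt81 and Cyp2e1, MTF2 lay below IgG in both libraries.

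The TSSs where both proteins stood highest over IgG were Itgb1bp2, Hoxa10, Gata6, Vcan and Evx2. Hoxa10 had 185 and 156 CPM in JARID2, 193 and 487 CPM in MTF2 and 43.4 CPM in IgG. Evx2, the homeobox gene beside the Hoxd cluster, had 175 and 103 CPM in JARID2, 246 and 688 CPM in MTF2 and 40.4 CPM in IgG. The MTF2 libraries were far apart at both, and neither ratio passed the test (-1.11 ± 1.21 at Hoxa10 and -1.86 ± 1.5 at Evx2, adjusted p = 0.920 and 0.858). Vcan, which encodes the matrix proteoglycan versican, had 77.2 and 58.9 CPM in JARID2, 66.0 and 61.9 CPM in MTF2 and 19.5 CPM in IgG. Vcan was not SUZ12-bound, and its H3K4me3 level was 153 and 148 CPM in NPC. Itgb1bp2 rests on 3 reads of IgG, so its ratios to IgG carry a wide counting error.

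To ask which PRC2-bound TSSs carried relatively more of either protein, the fit was repeated over the 452 SUZ12-bound TSSs alone, scaled among them, a step chosen after seeing the data. There the all-window excess of MTF2 is removed by construction. JARID2 was relatively higher at 18 TSSs (3.98%) and relatively lower at 14 (3.10%), in 17 and 11 separate regions. DESeq2 called 0 in either direction, and so did the fit without MTF2 replicate 2. Without JARID2 replicate 1 the counts were 2 and 1, without JARID2 replicate 2 they were 1 and 2, and without MTF2 replicate 1 they were 39 and 22.

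The relatively JARID2-high TSSs included Hox genes of the 3′ ends of the clusters. Hoxb3 had 132 and 100 CPM in JARID2, 70.6 and 118 CPM in MTF2 and 64.4 CPM in IgG. The antibodies overlapped at Hoxb3 in CPM, and its relative log2 ratio was 1.39 ± 0.25 (adjusted p = 2.11e-05). Hoxb2 and Hoxc4 were called at 0.80 and 0.99, and the Hoxa transcript Hoxaas3 at 0.84. Lfng, which encodes a glycosyltransferase that modifies Notch, had 71.1 and 67.7 CPM in JARID2, 63.7 and 58.0 CPM in MTF2 and 37.4 CPM in IgG, without overlap (relative ratio 1.23 ± 0.31, adjusted p = 0.00517). Nkx2-9, a homeobox gene of the ventral neural tube that responds to Hedgehog signals, had 85.3 and 64.8 CPM in JARID2, 79.7 and 73.5 CPM in MTF2 and 38.9 CPM in IgG (relative ratio 1.03 ± 0.28). The microtubule protein gene Map1a had 62.9 and 61.8 CPM in JARID2, 56.9 and 46.4 CPM in MTF2 and 21.0 CPM in IgG. The other called TSSs described here were Adra2b, an adrenergic receptor gene, Slc6a7, a proline transporter gene, the teneurin gene Tenm4, the crystallin gene Cryba2, the cell-cycle repressor gene E2f8, Klf9, Il31ra, Gm38436 and 1700011E24Rik, with relative ratios of 0.86 to 1.67.

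The 14 relatively JARID2-low TSSs had MTF2 above JARID2 without overlap between the libraries, as did 321 of all 452 bound TSSs. The same libraries chose the 14, so this separation is a description. Nkx2-1, a homeobox gene of the ventral forebrain, thyroid and lung (chr12:56532606-56537606), had 144 and 55.9 CPM in JARID2, 269 and 750 CPM in MTF2 and 43.4 CPM in IgG. It held the highest MTF2 level of the 14 in both MTF2 libraries, and its relative ratio was -1.18 ± 0.34 (adjusted p = 0.0169). Sp5, a zinc-finger target of WNT signalling, had 58.9 and 41.2 CPM in JARID2, 121 and 364 CPM in MTF2 and 47.9 CPM in IgG (-1.14 ± 0.29). Foxd3, a factor of the neural crest, had 85.3 and 26.5 CPM in JARID2, 130 and 400 CPM in MTF2 and 43.4 CPM in IgG (-1.05 ± 0.29). The forkhead genes Foxi3 and Foxe1 were also called, at -0.89 and -0.83. Prdm12, needed for pain-sensing neurons, had 75.1 and 79.5 CPM in JARID2, 164 and 540 CPM in MTF2 and 67.4 CPM in IgG (-1.06 ± 0.32). Overlapping windows made 3 pairs among the 14: Mirc35hg with BB283400, the LIM-homeobox gene Lhx1 with Lhx1os, and Dmrt2 with 2610016A17Rik. Mirc35hg had the most negative value, -1.28 ± 0.30, with 42.6 and 55.9 CPM in JARID2, 139 and 358 CPM in MTF2 and 58.4 CPM in IgG. Nkx2-4 and Prdm6 complete the set, at -0.79 and -0.95.

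In the fit of all 5 libraries the median relative ratio was lower in the steps of higher SUZ12, by a size that rested largely on MTF2 replicate 2. Over the 180 TSSs with SUZ12 at a log2 ratio of 1 to 1.5 over IgG the median was 0.24, over the 122 at 1.5 to 2 it was -0.02, over the 90 at 2 to 2.5 it was -0.23 and over the 60 above that it was -0.25. Of the 18 relatively JARID2-high TSSs, 16 lay in the lowest step, and of the 14 JARID2-low TSSs 0 did. From the lowest to the highest step JARID2 medians were 58.9, 60.9, 78.2 and 112 CPM in replicate 1 and 55.9, 55.9, 70.7 and 82.5 CPM in replicate 2. MTF2 medians were 72.8, 84.2, 107 and 132 CPM in replicate 1 and 132, 170, 276 and 361 CPM in replicate 2. Without MTF2 replicate 2 the step medians were 0.13, -0.02, -0.06 and -0.04, and without MTF2 replicate 1 they were 0.29, 0.04, -0.30 and -0.34. Between single libraries, as log2 of CPM with 5 added, JARID2 replicate 1 over MTF2 replicate 1 had medians of -0.21, -0.35, -0.42 and -0.31, with no steady order, and JARID2 replicate 2 over MTF2 replicate 1 had -0.32, -0.47, -0.57 and -0.64. Against MTF2 replicate 2 the medians were -1.14, -1.38, -1.71 and -1.69 for JARID2 replicate 1 and -1.21, -1.48, -1.85 and -2.09 for JARID2 replicate 2. When each step was scaled on its own, 1 TSS was called in each direction: Hoxb3 at 1.18 (adjusted p = 0.0282) and Mirc35hg at -1.29 (adjusted p = 0.0282). With SUZ12 at a log2 ratio of at least 1.5, 0 TSSs were called in either direction. The same IgG library and no JARID2 or MTF2 library set the steps.

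**Figure D4:**
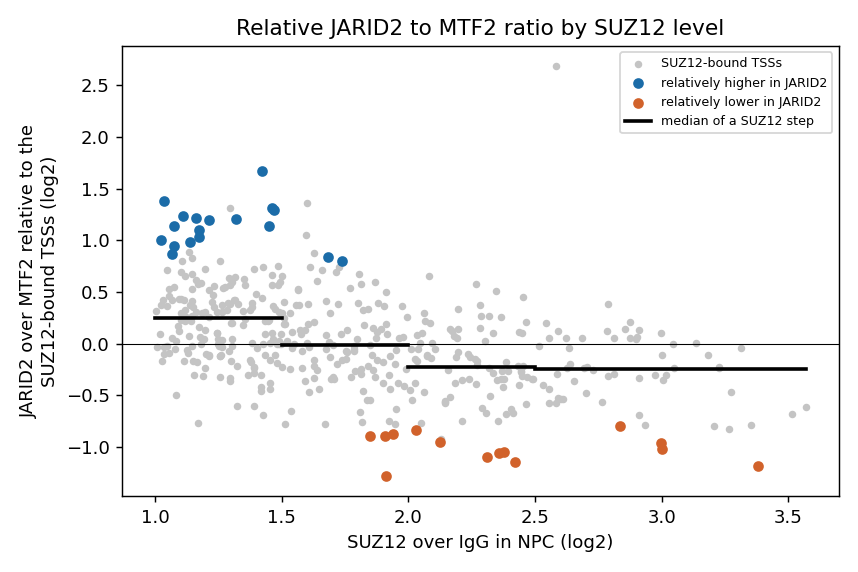
Log2 ratio of JARID2 over MTF2 relative to the SUZ12-bound TSSs (y axis) against log2 SUZ12 over IgG (x axis) for the 452 SUZ12-bound TSSs of NPC; coloured points passed the test and black bars are medians of the SUZ12 steps. The medians run from 0.24 in the lowest step to -0.25 in the highest with all 5 libraries, against 0.13 and -0.04 without MTF2 replicate 2, where 0 TSSs are called in either direction.

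In NPC, median JARID2 was 67.0 and 66.3 CPM at the relatively JARID2-high TSSs and 58.9 and 51.5 CPM at the relatively JARID2-low TSSs. It was 65.0 and 60.4 CPM at the bound TSSs that were not called. Median MTF2 was 58.0 and 72.5 CPM, 134 and 353 CPM, and 86.5 and 178 CPM in the same order. The groups differed more in MTF2 than in JARID2, and their names stand for relative levels only. Readouts that the test did not use also differed between these groups. The 18 JARID2-high TSSs had median SUZ12 levels of 91.2 and 86.9 CPM, and the 14 JARID2-low TSSs 203 and 202 CPM. Median H3K27me3 was 167 and 233 CPM at the JARID2-high TSSs, 364 and 664 CPM at the JARID2-low TSSs and 316 and 526 CPM at the bound TSSs that were not called. Median H3K4me3 was 55.4 and 57.1 CPM at the JARID2-high TSSs, 31.7 and 29.9 CPM at the JARID2-low TSSs and 30.8 and 30.7 CPM at the others. In ESC the JARID2-high TSSs had 59.1 and 63.0 CPM of JARID2 and 98.5 and 80.4 CPM of MTF2, and the JARID2-low TSSs had 94.4 and 112 CPM of JARID2 and 392 and 322 CPM of MTF2. The bound TSSs that were not called had 90.6 and 92.8 CPM of JARID2 and 284 and 225 CPM of MTF2 in ESC. The relatively JARID2-high TSSs thus carried less SUZ12 and H3K27me3 and more H3K4me3 at the median than the relatively JARID2-low TSSs, in both libraries of each mark. These are medians of small sets without a test, and how far the SUZ12 level accounts for them was not tested.

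The Hox clusters pattern the head-to-tail axis and are a classic PRC2 target. JARID2 exceeded IgG in both libraries at 10 of 11 Hoxa, 10 of 10 Hoxb, 9 of 9 Hoxc and 8 of 9 Hoxd TSSs. MTF2 did so in both libraries at all of them, though 0 Hox TSSs passed the test over IgG for either protein. Of the Hox TSSs 37 were SUZ12-bound. Over all 452 bound TSSs the counts above IgG were 379 for JARID2 and 446 for MTF2, beside 29.6% and 25% of all windows. The log2 ratio of JARID2 over MTF2 had medians of -1.10 over 11 Hoxa TSSs, -0.79 over 10 Hoxb, -1.14 over 9 Hoxc and -1.10 over 9 Hoxd, with 0 members called over all windows (background 0.0343% lower). Median levels at Hoxa were 116 and 103 CPM in JARID2, 125 and 360 CPM in MTF2 and 47.9 CPM in IgG. Without MTF2 replicate 2 the medians were -0.01 for Hoxa, 0.08 for Hoxb, -0.25 for Hoxc and -0.18 for Hoxd. Without MTF2 replicate 1 they were -1.64, -1.27, -1.53 and -1.57 in the same order. Against the other SUZ12-bound TSSs, 28 of 37 bound Hox TSSs had a positive relative ratio and 4 were called higher in JARID2, beside 227 of 452 positive and 3.98% called over the whole set. All 4, Hoxb2, Hoxb3 and Hoxc4 among them, are of paralog groups 1 to 5, which had 13 bound members with a median relative ratio of 0.33. The 24 members of groups 6 to 13 had a median of 0.12 and 0 calls. Median H3K4me3 was 63.1 and 57.3 CPM in groups 1 to 5 and 10.9 and 8.37 CPM in groups 6 to 13, and median SUZ12 131 and 143 CPM against 270 and 270 CPM. Of the 37 windows, 23 overlap another window and share reads with it. At Hoxb9 the levels were 175 and 135 CPM in JARID2, 225 and 625 CPM in MTF2 and 67.4 CPM in IgG, and at Hoxd9 they were 116 and 97.2 CPM in JARID2, 166 and 410 CPM in MTF2 and 44.9 CPM in IgG.

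**Figure D5:**
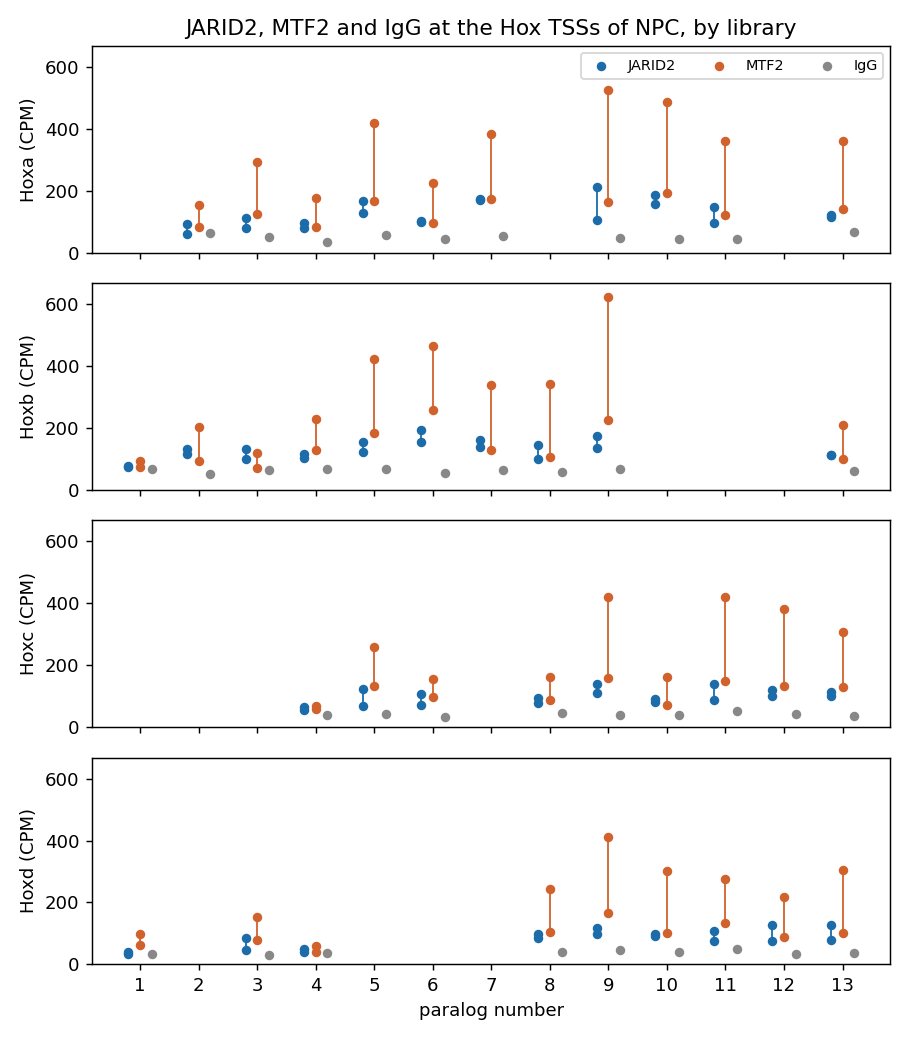
CPM (y axis) of each NPC library at Hox TSSs by paralog number (x axis), 1 panel per cluster; points are libraries and lines join the 2 libraries of an antibody. JARID2 and MTF2 overlap at the called TSSs Hoxb2, Hoxb3 and Hoxc4, and both MTF2 points lie above both JARID2 points at Hoxb9 and Hoxd9.

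On the scale of all windows, forebrain and dorsal regulators had the lowest median ratios of the gene groups, and they were also the groups other than the Hox clusters with the largest share of SUZ12-bound TSSs, 19 of 20 and 13 of 17. Forebrain regulators had a median log2 ratio of -1.35 over 20 TSSs, all 20 negative, and dorsal neural tube and neural crest regulators a median of -1.39 over 17, all 17 negative. In each group 0 members were called over all windows. Zic1, a dorsal zinc-finger factor, had 87.3 and 53.0 CPM in JARID2, 148 and 385 CPM in MTF2 and 27 CPM in IgG. Both JARID2 libraries were below both MTF2 libraries at 14 of 20 forebrain and 12 of 17 dorsal TSSs. The same held at 321 of all 452 bound TSSs and at 14.7% of all windows. Without MTF2 replicate 2 the group medians were -0.42 and -0.38, and without MTF2 replicate 1 they were -1.84 and -1.80. Relative to the bound TSSs, where 3.10% of all were called lower, the 19 forebrain members had a median of -0.25 with 1 called (Nkx2-1), the 13 dorsal members -0.31 with 1 called (Foxd3), and 19 neuronal differentiation members -0.25 with 1 called. There the 3 bound PRC1 subunit genes, at -0.34, and the 2 bound glial genes, at -0.42, had lower medians.

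Ventral neural tube and Hedgehog response genes had a median log2 ratio of -0.66 over 17 TSSs, of which 10 were SUZ12-bound. At 10 of the 17 JARID2 was the lower without overlap, beside 321 of all 452 bound TSSs and 14.7% of all windows. The median was -0.28 without MTF2 replicate 2 and -0.86 without MTF2 replicate 1. Olig2, the motor neuron and oligodendrocyte lineage factor, had 95.4 and 67.7 CPM in JARID2, 107 and 321 CPM in MTF2 and 44.9 CPM in IgG (log2 ratio -1.5 ± 0.73, adjusted p = 0.651, and -0.36 without MTF2 replicate 2). Without MTF2 replicate 1 the Olig2 ratio was -2.09. Nkx2-2, a factor of the most ventral progenitors, had 69.0 and 70.7 CPM in JARID2, 59.2 and 114 CPM in MTF2 and 31.4 CPM in IgG. Its JARID2 libraries lay between the MTF2 libraries, with a log2 ratio of -0.42 ± 0.37. The ratio was 0.23 without MTF2 replicate 2 and -0.86 without MTF2 replicate 1. Neuronal differentiation genes had a median of -0.94 over 34 TSSs, -0.28 without MTF2 replicate 2 and -1.39 without MTF2 replicate 1. The sensory neuron factor Pou4f1 had 32.5 and 29.4 CPM in JARID2, 50.1 and 132 CPM in MTF2 and 27 CPM in IgG. Genes of the progenitor state itself had a median of -0.33 over 24 TSSs, of which 2 were SUZ12-bound. Their median was -0.09 without MTF2 replicate 2 and -0.39 without MTF2 replicate 1. Sox1, a progenitor gene, had 44.7 and 35.3 CPM in JARID2, 61.5 and 114 CPM in MTF2 and 25.5 CPM in IgG (-1.22 ± 0.34, adjusted p = 0.255, and -0.60 without MTF2 replicate 2). Without MTF2 replicate 1 the Sox1 ratio was -1.63. Pax6 had 38.6 and 67.7 CPM in JARID2, 38.7 and 83.2 CPM in MTF2 and 41.9 CPM in IgG, so the antibodies overlapped with each other and with the background.

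Outside the neural groups, mesoderm regulators had a median of -0.90 over 31 TSSs, endoderm regulators -0.73 over 19, regulators of surface ectoderm and trophectoderm -0.68 over 16, and WNT, BMP and FGF ligands -0.51 over 41. Without MTF2 replicate 2 these medians were -0.21, -0.31, -0.17 and -0.19 in the same order. Without MTF2 replicate 1 they were -1.23, -1.14, -1.15 and -0.80. Of these groups 18, 8, 6 and 10 TSSs were SUZ12-bound. Gata6, an endoderm factor, had 112 and 94.2 CPM in JARID2, 141 and 375 CPM in MTF2 and 28.4 CPM in IgG (-1.44 ± 0.85, adjusted p = 0.755, and -0.44 without MTF2 replicate 2). The mesoderm factor T had 79.2 and 41.2 CPM in JARID2, 61.5 and 101 CPM in MTF2 and 53.9 CPM in IgG. Imprinted genes had a median of -0.12 over 26 TSSs, PRC1 subunit genes -0.18 over 21, PRC2 subunit genes -0.20 over 11 and genes of naive pluripotency -0.38 over 21. They were 0.04, -0.02, -0.04 and -0.24 without MTF2 replicate 2, and -0.23, -0.28, -0.20 and -0.50 without MTF2 replicate 1. The 16 glial genes had a median of -0.18, with Nfib the 1 member called, where 0.0343% of all windows were. The glial median was 0.22 without MTF2 replicate 2 and -0.32 without MTF2 replicate 1. Housekeeping genes, at a median of 0.08 over 25 TSSs, and olfactory receptor genes, at 0.01 over 995, stood where all windows did. At Actb, the beta-actin gene, there were 52.8 and 44.2 CPM in JARID2, 75.1 and 54.1 CPM in MTF2 and 83.8 CPM in IgG. At the genes of the proteins themselves, Jarid2 had 32.5 and 20.6 CPM in JARID2, 77.4 and 38.7 CPM in MTF2 and 43.4 CPM in IgG, and Mtf2 had 42.6 and 41.2 CPM in JARID2, 43.2 and 50.3 CPM in MTF2 and 38.9 CPM in IgG. Every group median is on the scale of all windows. With library sizes taken over the SUZ12-bound TSSs the median of all windows was 1.02 and group medians were positive except for forebrain at -0.10 and dorsal neural tube and neural crest at -0.21.

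The JARID2 to MTF2 ratio of NPC was also set against that of the ESC the cells came from, with 2 JARID2 and 2 MTF2 libraries of each cell type. JARID2 relative to MTF2 was higher in NPC than in ESC at 631 TSSs (2.79% of 22654) and lower at 151 (0.667%) in edgeR's test of the interaction. At the 631 TSSs the median MTF2 level was 41.0 and 46.4 CPM in NPC and 97.3 and 83.5 CPM in ESC, while the median JARID2 level was 50.8 and 47.1 CPM in NPC and 35.2 and 35.7 CPM in ESC. SUZ12 there was 45.1 and 46.8 CPM in NPC and 79.3 and 75.9 CPM in ESC. Median IgG was 41.9 CPM in NPC and 40.2 CPM in ESC, and 11 of the 631 were SUZ12-bound in NPC. MTF2 was near IgG in NPC and above it in ESC at the middle of this set. The JARID2 and MTF2 levels of the 631 and of the 151 TSSs are a description, since the same 8 libraries chose these TSSs. At the 151 TSSs the median MTF2 level was 45.5 and 34.8 CPM in NPC and 12.0 and 16.7 CPM in ESC, below the ESC IgG at 40.2 CPM. Over all 23325 windows tested in NPC the ESC MTF2 medians were 26.4 and 31.3 CPM, so they too lay below that IgG level. DESeq2 called 103 and 0. Scaled by library totals the counts were 315 and 544, so the balance of directions depends on the scaling. Leaving out 1 library at a time gave 34 and 7 without NPC JARID2 replicate 1, 151 and 42 without NPC JARID2 replicate 2, 113 and 14 without NPC MTF2 replicate 1, and 1029 and 225 without NPC MTF2 replicate 2. It gave 104 and 34 without ESC JARID2 replicate 1, 73 and 10 without ESC JARID2 replicate 2, 147 and 23 without ESC MTF2 replicate 1, and 1524 and 334 without ESC MTF2 replicate 2.

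Genes of neural progenitors supplied 3 of 24 members among the TSSs with a higher ratio in NPC (Cdh2, Dach1 and Sox3), beside 2.79% of all TSSs tested. Cdh2, which encodes N-cadherin, had 26.4 and 41.2 CPM of JARID2 and 50.1 and 50.3 CPM of MTF2 in NPC, and 22.6 and 21.4 CPM of JARID2 and 193 and 142 CPM of MTF2 in ESC. MTF2 was lower in NPC than in ESC in each library, where IgG was 38.9 CPM in NPC and 13.4 CPM in ESC. Epha7, an ephrin receptor gene, had 32.5 and 29.4 CPM of JARID2 and 43.2 and 67.7 CPM of MTF2 in NPC, and 17.6 and 16.7 CPM of JARID2 and 248 and 175 CPM of MTF2 in ESC (difference 3.12 ± 0.69 on the log2 scale, adjusted p = 0.00354). Sox11, a factor of neuronal maturation, had 32.5 and 47.1 CPM of JARID2 and 27.3 and 36.7 CPM of MTF2 in NPC, and 45.3 and 28.5 CPM of JARID2 and 204 and 148 CPM of MTF2 in ESC. Among the PRC2 subunit genes, Phf19, which encodes another Polycomb-like protein, passed with 58.9 and 55.9 CPM of JARID2 and 31.9 and 52.2 CPM of MTF2 in NPC, and 32.7 and 47.6 CPM of JARID2 and 91.3 and 66.8 CPM of MTF2 in ESC. In the other direction, the naive pluripotency factor Klf2 had 34.5 and 61.8 CPM of JARID2 and 79.7 and 130 CPM of MTF2 in NPC, and 50.3 and 35.7 CPM of JARID2 and 25.2 and 16.7 CPM of MTF2 in ESC. At Klf2 MTF2 was higher in NPC than in ESC in each library. The Hox clusters had 0 members that passed, with median differences between -0.26 and 0.11. Over the 452 SUZ12-bound TSSs of NPC the median ratio was -1.16 in NPC and -1.73 in ESC. Of the 452, 11 were higher and 1 lower in NPC, beside 2.79% and 0.667% of all TSSs tested. The count of 11 depended on single libraries. It was many times larger without NPC MTF2 replicate 2 and much smaller without each other NPC library of the test. Its nearness to the share of all TSSs is therefore not stable.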

How the data were processed

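CUT&RUN was measured in 22 libraries, of which 5 of NPC (2 JARID2, 2 MTF2, 1 IgG) carry the comparison. The authors deposited raw read counts per TSS window, 1 column per library. Bowtie2 2.3.4.3, Picard 2.19 and the build mm10 are named, per the submitters' processing notes, and the counting tool is not given in the sources used here. The protocol adds Drosophila spike-in DNA, per the labels' protocols, and no spike-in scaling was applied here. Columns were tied to samples by name. Of 24467 windows, 5370 overlap another, and 27 gene symbols turned into dates were restored through their transcript accessions.

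From the deposited counts, CPM was computed over each library's total. The fit of 5 libraries used edgeR 4.0.16 (R 4.3.3, TMM scaling, filterByExpr with a minimum count of 10, quasi-likelihood test, adjusted p below 0.05 after Benjamini-Hochberg), with 2 residual degrees of freedom. Log2 ratios come from these fits. The fit within SUZ12-bound TSSs was chosen after seeing the data. The NPC minus ESC test used 8 libraries. DESeq2 1.42.0, other scalings, filters, a replicate block and leaving out each library were alternatives. On simulated data with the real depths, the fit over 23271 windows recovered 9.38% of changes of log2 1 and 72.4% of log2 2, the fit within 451 bound TSSs 63.2% and 100%, and the NPC minus ESC fit over 22350 windows 1.08% and 45.8%. The simulation used 1 spread for all windows of a fit and did not hold the distance between the MTF2 libraries. These shares can therefore overstate what the fits recover in the real data.

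The comparison, the gene lists and the tests were chosen with earlier results of these data known. Named TSSs were those called, the smallest p-values in each direction, the highest lower ratio over IgG of both proteins, and fixed landmark genes. Other genes were named from the gene lists as examples after their values were seen. A few TSSs that the counts include are not reported here by name.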

Additional observations from a re-analysis of the deposited data

Results flagged for a closer look

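The JARID2 to MTF2 ratio differed between NPC and ESC by the test of that difference at 631 TSSs with a positive and 151 with a negative NPC minus ESC value. The 5 positive TSSs named were Epha7 at 3.12, Zswim6 at 2.94, Efna5 at 2.94, Sox11 at 2.87 and Kcnq5 at 2.84 on the log2 scale. At Kcnq5 there were 38.6 and 67.7 CPM of JARID2 and 34.1 and 56.1 CPM of MTF2 in NPC, and 22.6 and 33.3 CPM of JARID2 and 160 and 123 CPM of MTF2 in ESC. The 5 negative TSSs named were Rps19-ps3 at -2.14, Prss53 at -2.02, Rhbdd1 at -1.89, Pecam1 at -1.88 and Zg16 at -1.87. At Pecam1 there were 46.7 and 61.8 CPM of JARID2 and 68.3 and 63.8 CPM of MTF2 in NPC, and 88.1 and 83.3 CPM of JARID2 and 20.4 and 27.2 CPM of MTF2 in ESC, where IgG was 80.4 CPM. Olfactory receptor genes supplied 17 of the negative TSSs, of 797 tested, where 0.667% of all TSSs tested were negative.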

How the results depend on the processing

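TSSs lower in JARID2 numbered 8, against 0 in DESeq2, 14 with library totals, 0 with TMM from background TSSs, 0 with library sizes over SUZ12-bound TSSs, 3 with no filter, 42 at a minimum count of 30, 3 with the JARID2 libraries summed, 0 in 1 fit over 11 NPC libraries, 0 with JARID2 and MTF2 alone and 0 to 760 leaving out 1 library. Those higher in JARID2 numbered 0, with 1 under library sizes over SUZ12-bound TSSs and 0 to 45 leaving out 1 library. TSSs favouring MTF2 numbered 2, against 0 in DESeq2, 7 with library totals, 0 with background TMM, 0 with bound library sizes, 1 with no filter, 22 at a minimum count of 30, 1 with JARID2 summed, 0 in the fit of 11 libraries, 19 with the IgG of both cell types and 0 to 671 leaving out 1 library. MTF2 over IgG gave 5, against 150 in DESeq2, 30 with library totals, 0 with background TMM, 72 at a minimum count of 30, 0 in the fit of 11 libraries, 13 in windows that overlap no other, 373 with both IgG libraries and 4 to 864 leaving out 1 library; JARID2 over IgG gave 0 to 30. The NPC minus ESC counts of 631 and 151 became 103 and 0 in DESeq2, 315 and 544 with library totals, 93 and 316 at a minimum count of 30, and 34 to 1524 and 7 to 334 leaving out 1 library. Within SUZ12-bound TSSs, 18 and 14 became 0 and 0 in DESeq2, 0 and 0 at SUZ12 of at least log2 1.5, 1 and 1 scaled within SUZ12 steps, 2 and 3 with JARID2 summed, 12 and 4 in windows that overlap no other, and 0 to 39 and 0 to 22 leaving out 1 library. The cause was not tested. With the replicate number as a block, 13 TSSs were lower in JARID2, and within SUZ12-bound TSSs 10 were relatively higher and 3 lower. Replicate differences of JARID2 and of MTF2 had a correlation of -0.02 over all windows and -0.10 over bound windows. This cannot show whether same-numbered libraries were paired, because the JARID2 libraries differed by little more than the error of counting.

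Library sizes over SUZ12-bound TSSs moved the median of all windows from -0.01 to 1.02, a shift shared by all ratios, so mildly negative ones turned positive by construction, at Pax6 (0.93), Nkx2-2 (0.79), Hoxd13 (0.21), T (0.63), Pou5f1 (0.72), Actb (0.46), Mtf2 (0.83) and Hoxa10 (0.16). Leaving out 1 library gave values on both sides of 0 at Pax6 (-0.87 to 0.38), Nkx2-2 (-0.86 to 0.23), Hoxd13 (-1.68 to 0.047), T (-1.08 to 0.044), Nanog (-0.23 to 0.48), Itgb1bp2 (-0.25 to 0.36) and Vcan (-0.20 to 0.19). The named genes here did not pass the test in the fit of 5 libraries. On simulated data with the real depths and 1 spread for all windows, 9.38% of log2 1 and 72.4% of log2 2 changes were recovered over all windows. The distance between the MTF2 libraries was not simulated.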
